A study of Mus musculus with 12 samples.

Results

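The transcripts described here encode the writers, readers and erasers of N6-methyladenosine (m6A), the methyl mark that is laid on adenosines inside mRNA. They are 10 genes of the 55573 in the count files: the writers Mettl3, Mettl14, Wtap and Zc3h13, the readers Ythdc1, Ythdc2, Ythdf2 and Ythdf3, and the erasers Alkbh5 and Fto. Writers place the mark in the nucleus as RNA is transcribed, readers of the YTH family bind it and steer splicing, export, translation or decay, and erasers take it off. A fully grown oocyte largely silences transcription, so the fate of its stored mRNA is set after transcription, and loss of the writer or of single readers in the female germ line is known to impair oocyte growth or maturation. The sequencing reports the abundance of these transcripts and measures neither the mark nor the proteins.

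Poly(A) RNA was sequenced in 12 libraries from 8 germinal vesicle (GV) oocytes, which are fully grown oocytes with an intact nuclear envelope. All came from 1 B6D2F1 female, 12 weeks old, so replicates are oocytes or parts of oocytes and not animals, and p-values measure the spread between these samples only. Of the 8 oocytes, 6 were sequenced whole after 10, 14 or 18 cycles of cDNA amplification, with 2 libraries per cycle number, and the lysates of the other 2 were diluted to 1/2, 1/4 and 1/8 of an oocyte, again with 2 libraries each, and amplified for 18 cycles. Which of these 2 oocytes each fraction library came from is not given, so the fraction libraries were treated as independent. The same amount of ERCC spike-in RNA (External RNA Controls Consortium) went into each library, and the series asks how normalization on it behaves across cycle numbers and fractions.

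Counts on genes were 11597144 and 9189672 in the whole oocytes at 10 cycles and 12349577 and 13806199 at 14 cycles. They were 3017069 and 1706478 in the whole oocytes at 18 cycles. The fractions held 4024670 and 3598549 counts for 1/2, 4027907 and 5049518 for 1/4, and 11404262 and 1702062 for 1/8. Levels are given as CPM, the counts of a gene divided by all counts on genes in its library and scaled to the same total (1e6) in each. A floor of 3 counts lay at 0.217 CPM in the deepest library and at 1.76 CPM in the shallowest. These floors cover counting error only, because reads and not molecules were counted. Each of the 10 transcripts lay above its floor in each of the 12 libraries, and the lowest count was 7, for Fto in the second whole oocyte at 18 cycles.

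The label of oocyte was checked against marker genes. All 12 oocyte markers examined (Zp1, Zp2, Zp3, Gdf9, Bmp15, Figla, Nobox, Oosp1, Dppa3, Mos, Npm2 and Ooep) had counts in each library. Their summed level was 25688 and 23674 CPM in the whole oocytes at 10 cycles, 25742 and 27430 CPM at 14 cycles, and 7469 and 6400 CPM at 18 cycles. In the fractions it was 10234 and 9293 CPM for 1/2, 13426 and 14935 CPM for 1/4, and 21780 and 21325 CPM for 1/8. The most abundant of them was Gdf9 in 10 of the libraries and Ooep in the other 2, so the cells carry the label, while the whole oocytes at 18 cycles stand apart from the other whole oocytes in marker level as well as in depth. The design gives no way to separate the number of cycles from the oocyte or its handling, and the part of these differences in the results on the m6A genes was not tested.

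The 12 markers of cumulus and granulosa cells, which surround the oocyte in the follicle, summed to 156 and 85.0 CPM at 10 cycles. At 14 cycles they summed to 110 and 151 CPM, and at 18 cycles to 60.0 and 28.1 CPM. They summed to 35.8 and 31.4 CPM for 1/2, 55.1 and 60.2 CPM for 1/4, and 78.5 and 75.8 CPM for 1/8. Nr5a2 or Cyp19a1 was the most abundant. Inha, which granulosa cells express, had 396 and 3 reads in the pair at 10 cycles, 45 and 441 in that at 14 cycles, and 52 and 1 in the whole oocytes at 18 cycles, so 1 library of each pair held far more of it, and Star (285 and 6 reads) and Amh (71 and 1) were uneven in the same way at 10 cycles. At 14 cycles Star (22 and 99 reads) and Amh (4 and 67) went the way of Inha. Ptgs2 (37 and 4), Fshr (13 and 4) and Lhcgr (11 and 3) went the other way there. Nr5a2 was closer within pairs, with 46.2 and 37.4 CPM at 10 cycles and 44.2 and 46.6 CPM at 14 cycles. So was Cyp19a1, with 27.5 and 32.6 CPM at 10 cycles and 38.1 and 46.1 CPM at 14 cycles. Fshr had no count in 9 of the 12 libraries. Amhr2 (31 and 0 reads), Foxl2 (15 and 0), Ptgs2 (15 and 3) and Lhcgr (14 and 4) went the way of Inha at 10 cycles. Kitl (127 and 115) and Has2 (4 and 5) were closer in that pair. Amhr2 (4 and 11) and Foxl2 (2 and 7) followed Inha at 14 cycles too, but the markers named above went both ways there. In the whole oocytes at 18 cycles Amh (20 and 1), Foxl2 (11 and 0) and Star (8 and 1) followed it, while Ptgs2 (0 and 2) did not. Whether traces of follicle cells differ between the whole oocytes was not tested. The 4 blood and immune markers summed to at most 4.16 CPM, led by Cd68, and Hba-a1 had no count in any library. The 4 markers of endothelium and stroma summed to between 7.95 and 50.6 CPM, nearly all of it Pecam1. Cdh5 and Col1a1 had no count in 10 of the 12 libraries each. Pecam1 had 45.4 and 41.4 CPM at 10 cycles, 38.8 and 49.6 CPM at 14 cycles, and 7.62 and 11.1 CPM at 18 cycles. It was thus lower at 18 cycles, as the summed oocyte markers were. Which cells the reads of Pecam1, Nr5a2 and Cyp19a1 came from was not tested.

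Levels between genes were compared per length, as counts per kilobase of merged exons scaled to the same total over all genes, in the 2 whole oocytes at 10 cycles. On this scale Alkbh5, the demethylase that works in the nucleus, had the highest value at 508 ± 23.7 (SD, n = 2), rank 252 of the 25175 genes with a count. Wtap, the adaptor that holds the catalytic pair of the writer in nuclear speckles, followed at 273 ± 93.3 and Ythdf3 at 135 ± 32.1. Zc3h13 (99.8 ± 13.5) and Ythdf2 (96.1 ± 32.1) did not differ beyond their spread. The catalytic pair of the writer stood near the middle of the list, with Mettl3 at 32.6 ± 1.07 and Mettl14, its RNA-binding partner, at 28.3 ± 1.89, close to the nuclear reader Ythdc1 at 24.4 ± 9.88. Ythdc2, a helicase with a YTH domain, was at 14.0 ± 1.65 and Fto, the other demethylase, was lowest at 3.17 ± 0.966, rank 12410. The highest member stood 160-fold over the lowest with merged exons as the length. With the longest transcript as the length the span was 60.9-fold and the order changed. Wtap (429) stood level with Alkbh5 (426), Ythdf2 (85.4) just above Zc3h13 (81.8), and Ythdc1 (42.4) above Mettl14 (23.4). Mettl3 had 61.6 with this length, so the catalytic pair no longer lay close together, and Fto had 7.05.

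Together the 10 genes took 2461 and 2105 CPM of the gene counts in the whole oocytes at 10 cycles and 2427 and 2305 CPM at 14 cycles. In the whole oocytes at 18 cycles they took 3323 and 4174 CPM. The fractions gave 2596 and 3696 CPM for 1/2, 3621 and 3463 CPM for 1/4, and 2520 and 2905 CPM for 1/8. The summed share of both whole oocytes at 18 cycles thus exceeded that of each of the 4 amplified for 10 or 14 cycles, and 1/8 overlapped neither of these sets. Alkbh5 made up between 30.1% (the second library of 1/8, where Wtap was higher) and 58.9% of the sum. Without Alkbh5 and Ythdc1 the order of the whole oocytes changed: the other 8 genes summed to 1422 and 1064 CPM at 10 cycles, 1539 and 1480 CPM at 14 cycles, and 978 and 907 CPM at 18 cycles. The rise in the sum thus came from 1 reader and 1 eraser. The lower sum of the other 8 came mostly from Wtap: without Wtap as well, the remaining 7 summed to 771 and 665 CPM at 10 cycles, 747 and 782 CPM at 14 cycles, and 727 and 633 CPM at 18 cycles, so 18 cycles then overlapped 10 cycles and still lay below 14 cycles.

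**Figure D1:**
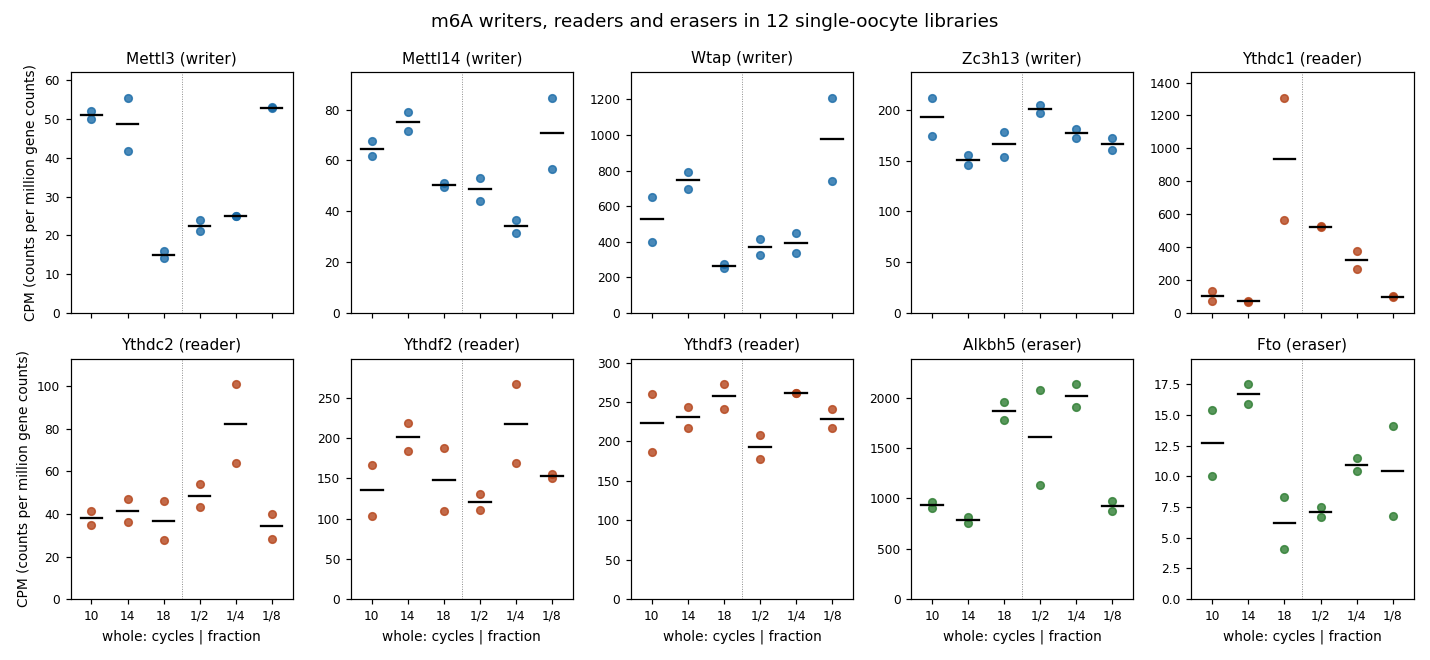
Level of each of the 10 transcripts in CPM (y axis, from 0) in the 12 libraries, grouped on the x axis as whole oocytes at 10, 14 and 18 cycles and as 1/2, 1/4 and 1/8 of an oocyte; each point is a library and each bar the mean of 2. Ythdc1 reached 565 and 1306 CPM in the whole oocytes at 18 cycles and stayed between 67.9 and 132 CPM at 10 and 14 cycles, while Zc3h13 kept between 145 and 212 CPM in all 12.

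Among the writers, Mettl3, which encodes the catalytic subunit, had 52.1 and 50.0 CPM in the whole oocytes at 10 cycles, 41.9 and 55.5 CPM at 14 cycles, and 15.9 and 14.1 CPM at 18 cycles. In the fractions Mettl3 had 21.1 and 23.9 CPM for 1/2, 25.1 and 25.0 CPM for 1/4, and 53.1 and 52.9 CPM for 1/8. Both whole oocytes at 18 cycles lay below all 10 other libraries, the 1/2 and 1/4 fractions stood between, and 1/8 lay within the range of the whole oocytes at 14 cycles. In counts this was 48 and 24 reads in the whole oocytes at 18 cycles against 604 and 459 at 10 cycles. The order of the groups was 1/8, 10 cycles, 14 cycles, 1/4, 1/2 and whole at 18 cycles. In that order only the ranges at 10 and 14 cycles overlapped among neighbours.

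Wtap had 650 and 399 CPM at 10 cycles, 792 and 699 CPM at 14 cycles, and 251 and 274 CPM at 18 cycles. In the fractions it had 325 and 418 CPM for 1/2, 336 and 449 CPM for 1/4, and 743 and 1208 CPM for 1/8. The whole oocytes at 18 cycles were the lowest of all libraries and the second library of 1/8 the highest, and the ranges at 10 cycles, 1/2 and 1/4 overlapped.

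Mettl14 and Zc3h13 varied less. Mettl14 ranged from 31.3 CPM in a library of 1/4 to 84.6 CPM in a library of 1/8, and its whole oocytes at 18 cycles (49.7 and 51.0 CPM) lay below the 61.7 to 79.0 CPM of the whole oocytes at 10 and 14 cycles. Zc3h13, the zinc finger protein of the writer's regulatory complex, differed only 1.46-fold between its highest and lowest library, and its ranges at 10 and 18 cycles overlapped. Wtap and Mettl14 therefore kept the same side as Mettl3 in CPM at 18 cycles, and Zc3h13 did not. For Mettl14 this holds in CPM only: it passed in neither test of 18 cycles below. With the size factors used there its log2 fold change ranked 7942 from the highest of 17532 genes against 10 cycles. Against 14 cycles it ranked 8732.

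Among the readers, Ythdc1, which binds the mark in the nucleus and acts in splicing and export, differed the most of the 10 genes. It had 73.1 and 132 CPM at 10 cycles, 71.2 and 67.9 CPM at 14 cycles, and 565 and 1306 CPM at 18 cycles. In the fractions it had 522 and 527 CPM for 1/2, 379 and 267 CPM for 1/4, and 93.6 and 101 CPM for 1/8. The whole oocytes at 18 cycles lay above all other libraries, followed without overlap by 1/2 and then 1/4, while 1/8 fell within the range at 10 cycles. The 1706 and 2229 reads of Ythdc1 in the whole oocytes at 18 cycles exceeded the 848 and 1216 reads at 10 cycles, although the libraries at 18 cycles held fewer counts in all. The mean of the whole oocytes at 18 cycles was 10.9-fold that of the 4 at 10 and 14 cycles, the largest such ratio of the 10 genes; without the second whole oocyte at 18 cycles it was 6.57-fold.

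The cytoplasmic readers Ythdf2, which brings marked mRNA to decay, and Ythdf3 overlapped between 10 and 18 cycles. Ythdf2 ranged from 104 CPM in a whole oocyte at 10 cycles to 267 CPM in a library of 1/4, and its 187 and 110 CPM at 18 cycles overlapped the 167 and 104 CPM at 10 cycles, while its 184 and 218 CPM at 14 cycles lay above those at 10 cycles. Ythdf3 ranged from 177 to 272 CPM over the 12 libraries, and each pair of neighbours in the order of its groups overlapped. Ythdc2, the helicase reader known for its part in the entry of germ cells into meiosis, had 101 and 64.0 CPM in 1/4 and between 27.5 and 53.9 CPM in the 10 other libraries. Its 1/4 fractions thus lay above all others without overlap, and the ranges of the remaining groups overlapped their neighbours.

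Of the erasers, Alkbh5 had 966 and 908 CPM at 10 cycles, 817 and 757 CPM at 14 cycles, and 1779 and 1960 CPM at 18 cycles. In the fractions it had 1137 and 2079 CPM for 1/2, 2132 and 1905 CPM for 1/4, and 970 and 875 CPM for 1/8. The whole oocytes at 18 cycles and the libraries of 1/2 and 1/4 lay above all those at 10 and 14 cycles, whereas 1/8 overlapped 10 cycles. Fto stayed low in all libraries, with 15.4 and 10.0 CPM at 10 cycles, 17.5 and 15.9 CPM at 14 cycles, and 8.29 and 4.10 CPM at 18 cycles, the last pair resting on 25 and 7 reads. Its fractions ranged from 6.71 to 14.1 CPM.

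In CPM, the whole oocytes at 18 cycles did not overlap those at 10 and 14 cycles for 6 of the 10 genes, 2 above (Ythdc1 and Alkbh5) and 4 below (Mettl3, Mettl14, Wtap and Fto). Over the 17532 genes tested in whole oocytes the same rule held for 62.4%, with 20.4% above and 41.9% below, so the count for the m6A genes is close to that of genes at large.

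The cycle numbers were compared with edgeR's quasi-likelihood test over the 6 whole oocytes, with median ratio size factors, Benjamini-Hochberg adjustment over the 17532 genes and a threshold of 0.01 on the adjusted p. The 3 comparisons share their groups, and the median log2 fold change over all genes was -0.29 at 18 against 10 cycles and -0.29 at 18 against 14 cycles. A lower abundance here can mean fewer copies in the oocyte or a smaller share of the amplified cDNA. ERCC size factors were not used between cycle numbers, so which of these holds was not tested. ERCC counts were 1611 and 1474 in the whole oocytes at 18 cycles and 35852 and 25528 at 10 cycles. Beside these, Mettl3 had 48 and 24 reads at 18 cycles and 604 and 459 at 10 cycles. Wtap had 758 and 468 reads at 18 cycles and 7543 and 3667 at 10 cycles.

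Between 14 and 10 cycles none of the m6A genes passed: edgeR called 0 of 10, beside 0% of all genes, with 0 of the 10 and 513 of all genes at an unadjusted p under 0.05, and DESeq2 called 0 of the 10 and 2 of all genes. Their log2 fold changes ran from -0.61 for Ythdc1 to 0.55 for Ythdf2, with a median of 0.05 over the 10 against 0.01 over all genes.

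At 18 against 10 cycles, 3 of the 10 genes passed in edgeR, beside 23.1% of all genes: 2 were higher, beside 12.3% of all genes, and 1 lower, beside 10.8%. Ythdc1 was higher by a log2 fold change of 3.48 (SE 0.45, edgeR adjusted p = 0.00028), which ranked 116 from the top among the 17532 genes, and Alkbh5 by 1.27 (SE 0.20, edgeR adjusted p = 0.000807). Mettl3 was lower, with a log2 fold change of -1.50 (SE 0.26, edgeR adjusted p = 0.00151). Each of these held in 2 of 2 oocytes against 2 of 2. Wtap, at -0.72 (edgeR adjusted p = 0.0419), did not pass, though it did with no filter on counts (-0.73) and among genes with 10 or more counts in all libraries (-0.94). The 6 other genes lay between -0.73 and 0.48. The median of the 10 was 0.13. The second whole oocyte at 18 cycles set much of the size of the Ythdc1 change: without it the log2 fold change was 2.67. The call of Alkbh5 ended without either library at 10 cycles (1.28 with edgeR adjusted p = 0.0152 without the first and 1.26 with edgeR adjusted p = 0.016 without the second, in a range from 9.94e-10 to 0.016 over 11 alternatives), leaving Ythdc1 alone. That of Mettl3 ended without either library at 10 cycles or the first at 18 cycles (edgeR adjusted p = 0.0113, 0.0128 and 0.0103, in a range from 1.35e-05 to 0.0128), with log2 fold changes between -1.51 and -1.50 in these 3 fits.

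At 18 against 14 cycles, which shares the whole oocytes at 18 cycles with the previous comparison, 4 of the 10 passed, beside 23.2% of all genes: 2 were higher, beside 12.5% of all genes, and 2 lower, beside 10.7%. Ythdc1 was higher by 4.08 (SE 0.46, edgeR adjusted p = 0.000149), rank 58 from the top, and Alkbh5 by 1.56 (SE 0.20, edgeR adjusted p = 0.00029). Mettl3 was lower at -1.40 (SE 0.26, edgeR adjusted p = 0.0022) and so was Wtap at -1.20 (SE 0.25, edgeR adjusted p = 0.00361). The median of the 10 was -0.01. Without the second whole oocyte at 18 cycles the log2 fold change of Ythdc1 was 3.28. Without the second library at 14 cycles, or the first at 18 cycles, neither Mettl3 (-1.19 and -1.39) nor Wtap (-1.29 and -1.04) passed, and Wtap was also lost without the first at 14 cycles (-1.09).

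The 1/8 fractions differed from the whole oocytes at 18 cycles in the opposite direction for the same genes. In the 8 libraries at 18 cycles, again with median ratio size factors and 14788 genes tested, edgeR called 4 of the 10 genes in 1/8, beside 15.7% of all genes: 2 were higher, beside 7.06% of all genes, and 2 lower, beside 8.69%. Ythdc1 was lower at -3.49 (SE 0.38, edgeR adjusted p = 6.53e-06) and Alkbh5 at -1.22 (SE 0.29, edgeR adjusted p = 0.00348). Wtap was higher by 1.69 (SE 0.30, edgeR adjusted p = 0.000307) and Mettl3 by 1.62 (SE 0.37, edgeR adjusted p = 0.00272). The other 6 lay between -0.37 and 0.45, and the median of the 10 was -0.17 against 0.03 over all genes. Since both comparisons rest on the same whole oocytes at 18 cycles, the mirrored directions are not independent. Without the second of them Ythdc1 stood at -2.69. Alkbh5 was not called without that oocyte (-1.10), nor without the first or second library of 1/8 (-1.28 and -1.14), and Mettl3 was not called without either whole oocyte (1.62 without the first and 1.59 without the second) or without the first library of 1/8 (1.63).

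For 1/2 against the whole oocytes at 18 cycles edgeR called 0 of the 10, beside 0.122% of all genes, with 1 of the 10 (Ythdc1) and 1943 of the 14788 genes at an unadjusted p under 0.05, while DESeq2 called 0 of the 10 and 151 of all genes. For 1/4 it called 0 of the 10, beside 0.46% of all genes, with 3 of the 10 (Ythdc1, Ythdc2 and Mettl14) and 2331 of all genes at an unadjusted p under 0.05. DESeq2 called 1 of the 10 (Ythdc1) as lower, beside 239 of all genes. Ythdc1 stood at -0.90 (SE 0.34) in 1/2 and at -1.69 (SE 0.35, edgeR adjusted p = 0.0136) in 1/4. Without the first whole oocyte at 18 cycles edgeR called Ythdc1 as lower in 1/4, at -2.22, and it passed with replicate numbers as blocks (-1.63) and with no filter on counts (-1.69) as well. Whether the fractions differ from each other was not tested.

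**Figure D2:**
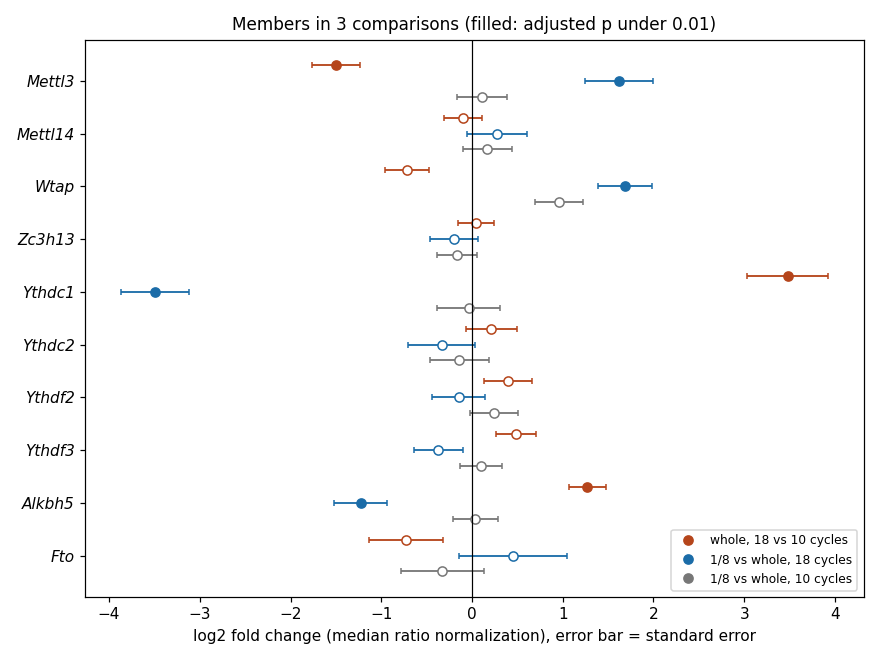
Log2 fold change of each gene (x axis, with the standard error as bar) at 18 against 10 cycles in whole oocytes, in 1/8 against whole oocytes at 18 cycles, and in 1/8 against whole oocytes at 10 cycles, all with median ratio size factors; filled points have an adjusted p under 0.01. Ythdc1 lay at 3.48, -3.49 and -0.04 in the 3 comparisons, which share libraries.

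Set against the whole oocytes at 10 cycles, in a fit of all 12 libraries with 18041 genes tested, the 1/8 fractions did not show these differences. There edgeR called 0 of the 10, beside 0% of all genes, with 1 of the 10 (Wtap) and 2278 of all genes at an unadjusted p under 0.05, and DESeq2 called 0 of the 10 and 45 of all genes. Ythdc1 stood at -0.04 (SE 0.35), Alkbh5 at 0.03 (SE 0.25) and Mettl3 at 0.11 (SE 0.28), and Wtap at 0.96 (SE 0.27, edgeR adjusted p = 0.175). Cycle number, oocyte and fraction all differ between these groups, and a value that misses the threshold does not show that the levels were equal.

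In the same fit the 1/2 fractions had 2 of the 10 genes higher than at 10 cycles, beside 16.2% of all genes called and 9.3% called as higher: Ythdc1 by 2.58 (SE 0.36, edgeR adjusted p = 2.59e-05) and Alkbh5 by 1.01 (SE 0.25, edgeR adjusted p = 0.00456). Alkbh5 lost its call without the second library of 1/2 (0.56) or without the first or second at 10 cycles (both 1.01). The 1/4 fractions had 3 of the 10 higher, beside 9.99% of all genes called and 5.82% called as higher: Ythdc1 by 1.77 (SE 0.35, edgeR adjusted p = 0.00117), Alkbh5 by 1.23 (SE 0.25, edgeR adjusted p = 0.00143) and Ythdc2 by 1.24 (SE 0.32, edgeR adjusted p = 0.00839). Without the first library of 1/4 none of the 3 passed (1.43, 1.09 and 0.80), nor without the first at 10 cycles (1.38, 1.24 and 1.08). Without the second at 10 cycles Ythdc1 alone passed, since Alkbh5 (1.23) and Ythdc2 (1.41) did not, and Ythdc2 was lost without the first library of 1/2 too (1.23). Mettl3 was at -0.94 in 1/2 and at -0.91 in 1/4, with edgeR adjusted p of 0.0168 and 0.0274; DESeq2 called it as lower in both (adjusted p = 0.00309 and 0.00516), and so did edgeR among genes with 10 or more counts in all libraries (-1.07 and -0.98). The 3 fractions share the whole oocytes at 10 cycles as their reference.

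ERCC normalization sets each gene against a fixed amount of added RNA, so a smaller part of an oocyte lowers the values of nearly all genes by design. Gene counts per ERCC count were 323 and 360 in the whole oocytes at 10 cycles and 347 and 354 at 14 cycles. They were 1873 and 1158 in the whole oocytes at 18 cycles, and in the fractions 439 and 344 (1/2), 214 and 174 (1/4) and only 49.3 and 46.5 (1/8). The median log2 fold change over all genes against the whole oocytes at 18 cycles was -2.00 in 1/2, -2.69 in 1/4 and -4.92 in 1/8, each a larger fall than the dilution itself. That reference stands apart from the other whole oocytes, whose gene counts per ERCC count lay near those of 1/2, so the size of these falls rests on it. Without the first whole oocyte at 18 cycles the medians were -1.39, -2.11 and -4.26. On this scale edgeR called 8 of the 10 genes lower in 1/2, beside 52% of all genes, 10 of 10 in 1/4, beside 69.7%, and 10 of 10 in 1/8, beside 87.5%. Mettl3 and Fto were those not called in 1/2, and both passed there without the second whole oocyte at 18 cycles (-1.87 and -2.59), Mettl3 also with replicate numbers as blocks (-1.43) and among genes with 10 or more counts in all libraries (-1.46).

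With all libraries Ythdc1 showed the largest fall of the 10 genes in each fraction on the ERCC scale, at -2.71 in 1/2 (SE 0.48, edgeR adjusted p = 2.43e-05), -4.23 in 1/4 (SE 0.52, edgeR adjusted p = 8.10e-09) and -8.29 in 1/8 (SE 0.62, edgeR adjusted p = 1.64e-15). The rank in 1/2 rests on the second whole oocyte at 18 cycles: without it Ythdf2 (-3.01) and Fto (-2.59) were among the genes with a larger fall than Ythdc1 (-2.46). Relative to the median of all genes the falls of Ythdc1 were -0.72, -1.54 and -3.37. With all libraries the smallest fall in 1/8 was that of Wtap at -3.26 (SE 0.48), which lay 1.66 above the median of all genes. Mettl3 followed at -3.35 (SE 0.59), which lay 1.57 above it. Their order changed in an alternative, where Mettl3 reached -2.80, above the highest value of Wtap in any (-2.91). The median of the 10 genes was -2.01, -2.58 and -5.18, close to that of all genes. The count in 1/2 fell most without the first whole oocyte at 18 cycles or the second library of 1/2, and the count over all genes fell with it. Without that oocyte 3 of the 10 and 3081 of all genes were called in 1/2 (7697 with all libraries), and Ythdf2 (-1.42), Mettl14 (-1.63), Zc3h13 (-1.16), Wtap (-1.13) and Ythdc2 (-0.70) were not. Without that library 4 of the 10 and 1930 of all genes were called, and Mettl14 (-2.00), Zc3h13 (-1.59), Wtap (-1.49) and Ythdc2 (-1.34) were not. Wtap was also lost without the first library of 1/2 (-1.62), and Ythdc2 without the first or second library of 1/4 (-1.63 and -1.63). In 1/4 the 10 calls, beside 10301 of all genes, became 7, beside 7435, without the first whole oocyte at 18 cycles, where Fto (-1.01), Mettl3 (-1.59) and Ythdc2 (-0.79) did not pass, and 7, beside 6703, without the second library of 1/4 (Fto -2.04, Mettl3 -1.96 and Ythdc2 -1.30). Without the first library of 1/4 they became 8, beside 7815, with Fto (-2.26) and Mettl3 (-2.32) lost, and DESeq2 called 9, beside 9825 of all genes, without Fto (-2.16).

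The 20 other genes of the pathway included partners of the writer, other methyltransferases, Ythdf1 and proteins described as m6A-dependent binders. At 18 against 10 cycles 3 of the 19 tested were higher, beside 12.3% of all genes, Elavl1 by 1.39 (SE 0.25), Pcif1 by 1.31 (SE 0.22) and Igf2bp2 by 0.91 (SE 0.20), and 3 were lower, beside 10.8%, Virma at -1.55 (SE 0.26), Cbll1 at -1.46 (SE 0.31) and Hnrnpc at -1.18 (SE 0.27). Virma and Cbll1 are subunits of the same regulatory complex as Wtap (-0.72) and Zc3h13 (0.04). Neither these nor its other listed subunits passed in this comparison, and whether the subunits differ from each other was not tested. Virma had 184 and 184 CPM at 10 cycles, 180 and 144 CPM at 14 cycles, and 42.8 and 62.7 CPM at 18 cycles. Its whole oocytes at 18 cycles lay below the 4 at lower cycle numbers. None of these 6 calls held without each single library. Without the first library at 10 cycles Elavl1 alone passed, and Pcif1 (1.13), Igf2bp2 (1.03), Virma (-1.58), Cbll1 (-1.52) and Hnrnpc (-1.24) did not; without the second Pcif1 alone passed, and Elavl1 (1.14), Igf2bp2 (0.81), Virma (-1.51), Cbll1 (-1.39) and Hnrnpc (-1.11) did not. Cbll1, Hnrnpc and Igf2bp2 were also lost without the first library at 14 cycles (-1.45, -1.17 and 0.91) or the second (-1.44, -1.17 and 0.92), and Cbll1, Hnrnpc and Elavl1 without the first whole oocyte at 18 cycles (-1.05, -0.76 and 1.30). Igf2bp2 was not called among genes with at least 10 counts in every library (0.70). Prrc2a (0.81) passed in DESeq2, and Rbm15b (1.28) in edgeR without the first whole oocyte at 18 cycles.

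At 18 against 14 cycles 5 of 19 were higher, beside 12.5% of all genes, now with Rbm15b (1.56, SE 0.35) and Prrc2a (1.18, SE 0.21) besides Elavl1 (1.30), Pcif1 (1.22) and Igf2bp2 (0.98), and the same 3 were lower, beside 10.7%, Cbll1 at -1.67, Virma at -1.33 and Hnrnpc at -1.13. These calls too hung on single libraries. Without the first library at 14 cycles none passed: Elavl1 stood at 1.27, Rbm15b at 1.63, Pcif1 at 1.33, Prrc2a at 1.26, Igf2bp2 at 1.04, Cbll1 at -1.61, Virma at -1.14 and Hnrnpc at -1.06. Without the second Virma alone passed, with Elavl1 at 1.34, Rbm15b at 1.52, Pcif1 at 1.13, Prrc2a at 1.11, Igf2bp2 at 0.94, Cbll1 at -1.69 and Hnrnpc at -1.18. Rbm15b was lost without the second whole oocyte at 18 cycles (0.92), and Elavl1 (1.22), Cbll1 (-1.26), Virma (-0.97) and Hnrnpc (-0.71) without the first. Neither Rbm15b (1.57 and 1.56) nor Hnrnpc (-1.12 and -1.14) passed without the first or the second library at 10 cycles. None of the 19 passed at 14 against 10 cycles in edgeR, with 1 at an unadjusted p under 0.05, beside 513 of the 17532 genes.

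In 1/8 against the whole oocytes at 18 cycles, 2 of the 19 were higher, beside 7.06% of all genes, Virma by 1.45 (SE 0.34) and Hnrnpc by 1.39 (SE 0.32), and Pcif1, the methyltransferase of the cap-adjacent adenosine, was lower at -1.29 (SE 0.31), beside 8.69%. Virma and Hnrnpc were lost without the first whole oocyte at 18 cycles (1.11 and 0.99) or the second library of 1/8 (1.32 and 1.40). Pcif1 was lost without any of the 4 libraries compared, at -1.35 and -1.26 without the first and second whole oocyte and at -1.46 and -1.14 without the first and second library of 1/8. DESeq2 called Rbm15b (-1.35) and Igf2bp2 (-0.86) as lower too, and so did edgeR for Rbm15b without the first whole oocyte at 18 cycles (-1.86). None passed in edgeR in 1/2 or 1/4, with 3 and 4 at an unadjusted p under 0.05, beside 1943 and 2331 of the 14788 genes. Against the whole oocytes at 10 cycles, with 20 tested, Pcif1 was higher in 1/2 by 1.23 (SE 0.27), and Cbll1 (-1.93, SE 0.36), Ythdf1 (-1.54, SE 0.35) and Virma (-1.25, SE 0.28) were lower, beside 16.2% of all genes called. In 1/4 Virma alone passed in edgeR, at -1.12 (SE 0.28), beside 9.99%. In 1/4 DESeq2 also called Pcif1 (0.94) and Hnrnpc (-0.80), and edgeR with TMM size factors Pcif1 (1.01). With no filter on counts edgeR called Fmr1 as higher in 1/4 (1.23) and Trmt112 as higher in 1/2 (1.13). Trmt112 also passed in 1/2 without the first or second library of 1/8 (1.14 and 1.13). In 1/8 edgeR called none, with 3 at an unadjusted p under 0.05, beside 2278 of the 18041 genes, and DESeq2 called 1, Ythdf1, as lower at -1.61. Of the edgeR calls against 10 cycles made with all libraries, only that of Cbll1 was kept without each single library. Without the first library of 1/2 Pcif1 (0.98), Virma (-0.90) and Ythdf1 (-1.54) were lost, and without the first library at 10 cycles as well (1.05, -1.29 and -1.62); without the second at 10 cycles Virma (-1.21) and Ythdf1 (-1.46) were lost, and Ythdf1 without the second library of 1/2 (-1.53). Virma in 1/4 was lost without the first or second library of 1/4 (-1.24 and -0.99) or at 10 cycles (-1.15 and -1.08), and with TMM size factors (-1.05). On the ERCC scale 14, 17 and 19 of the 19 were lower in 1/2, 1/4 and 1/8, beside 52%, 69.7% and 87.5% of all genes. The summed level of the 20 genes stayed between 1376 and 1770 CPM over the 12 libraries.

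The 10 genes lie on 8 different chromosomes of GRCm38, and Mettl3 (chromosome 14, 52294841 to 52305128) and Zc3h13 (chromosome 14, 75284373 to 75344426) share one, as do Mettl14 and Ythdf3 (both on chromosome 3). Ythdc1 (chromosome 5, 86804221 to 86836659, plus strand) shares 631 exon bases, 4.62% of its own, with the lincRNA Gm43055 on the same strand. Gm43055 had 22.7 and 37.3 CPM at 10 cycles, 21.9 and 18.6 CPM at 14 cycles, 203 and 451 CPM at 18 cycles, and 29.6 and 43.5 CPM in 1/8. It was high and low in the same libraries as Ythdc1, and reads on the shared bases may be missing from both, since HTSeq sets reads that fit more than 1 gene aside as ambiguous (2.64% to 4.53% of the reads per library). Mettl3 shares 933 exon bases, 18.4% of its own, with Tox4 on the opposite strand. Tox4 had 28.3 and 25.9 CPM at 10 cycles and 10.3 and 10.5 CPM at 18 cycles, so it too was lower there, and values of this pair are uncertain because it is not settled whether the counting used strand.

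The longest transcript of Ythdc1 has 37.6% G and C, at the 2.26 percentile of the genes kept in the fit of 12 libraries. Ythdf3 is close at 38.4% (3.29 percentile), and so is Wtap at 39.6% (5.55 percentile). Alkbh5 has 50.0% and stood at the 55.1 percentile. Whether the fold changes follow G and C content was not tested. Over the 10 genes the median was 44.0% G and C and 5416 bases, against 49.1% and 2862 bases over all 18041 genes kept.

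For each member with at least 10 counts in every library, which leaves out Fto, the gene of most similar pattern was found as the smallest mean absolute difference over the 12 libraries of log2(CPM + 1), each gene centred on its own mean, among 8328 genes. For Ythdc1 it was its neighbour Gm43055, with a mean difference of 0.14. It was Icmt for Alkbh5 (0.12), Prkaa1 for Mettl3 (0.10), Supt7l for Wtap (0.18) and Trp53inp1 for Mettl14 (0.12). It was Ccdc24 for Zc3h13 (0.07), Atp8a1 for Ythdc2 (0.20), Gm20604 for Ythdf2 (0.12) and Mxd1 for Ythdf3 (0.10). The mean absolute deviation of the genes themselves from their own mean ran from 0.13 for Zc3h13 to 1.28 for Ythdc1, so closeness is easier to reach for genes that vary little.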

How the data were processed

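Counts per gene were deposited by the authors as raw reads on genes and on 92 ERCC molecules, 1 file per library, made by polyA sequencing of single oocytes. The submitters' processing notes name cutadapt 2.5, STAR 2.7.2a, SAMtools 1.9, HTSeq 0.9.1 and the build mm10, and for their own tests R 3.5.1 and DESeq2 1.24.0; the methods of the paper name other versions of cutadapt, STAR and HTSeq. The methods give default parameters for HTSeq, which use strand, while the names of the count files point to counting without it, and this was not settled. Reads on no feature, 6.90% to 10.8% of those counted per library, stayed out of all totals. Of the 55573 genes, 55480 were matched to GENCODE M21, which gave names, positions and lengths.

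CPM were computed here from the counts on genes. Genes that reached 5 counts in 2 or more libraries were tested with edgeR 4.0.16 (quasi-likelihood) in R 4.3.3, with each group as a factor: the 6 whole oocytes for cycle number, the 8 libraries at 18 cycles for fractions (with median ratio and with ERCC size factors), and all 12 for fractions against 10 cycles. Adjusted p under 0.01 (Benjamini-Hochberg over all genes of a fit) was the threshold. The scripts were tested on simulated data. Alternatives were DESeq2 1.42.0, TMM factors, total ERCC counts, no filter, a floor of 10 counts in all libraries, the replicate number as a block, each library left out, the longest transcript as length, and sums without the 100 most abundant genes. Text and figures name all 10 members, genes of the pathway list of 20 that pass in at least 1 comparison with median ratio factors, and the gene nearest each member in pattern. Members, pathway genes and marker lists were chosen with earlier results of these data known. The sets of markers were 12 for the oocyte, 12 for cumulus and granulosa cells, 4 for blood and immune cells and 4 for endothelium and stroma.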

Additional observations from a re-analysis of the deposited data

How the results depend on the processing

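No called member changed direction. Of the 16 member calls with median ratio factors, 6 held under each alternative and 10 were lost without at least 1 library, and of the 22 calls of other pathway genes 1 held throughout. With the longest transcript as length the spread between members was 60.9-fold. The summed share rose at 18 cycles by a log2 of 0.69 (0.52 to 0.84 with single libraries left out); with the 100 most abundant genes left out of both sum and total, a choice made after the data were seen, it was -0.76, because Alkbh5 is then dropped from both whole oocytes at 18 cycles, Ythdc1 from 1 of them, and Alkbh5 from 1 of the 4 others. DESeq2 called 2 genes between 14 and 10 cycles where edgeR called 0, 151 against 18 in 1/2, 239 against 68 in 1/4, and 45 against 0 in 1/8 against 10 cycles. No filter gave 9, 218, 205 and 84 in these comparisons. Each of these settings called 1 member in 1/4, where edgeR called 0. A member not called otherwise, Wtap, passed at 18 against 10 cycles with no filter and with the stricter filter, and Mettl3 passed as lower in 1/2 and 1/4 against 10 cycles under DESeq2 and the stricter filter. On the ERCC scale Mettl3 passed in 1/2 with the block and with the stricter filter. TMM factors left 1 gene higher in 1/2, against 6 lower and 12 higher. On the ERCC scale 8329 genes passed in 1/8 among those with at least 10 counts in every library, against 12937, since fewer were tested; that filter drops Fto. Total ERCC counts as factor moved the median of all genes from -2.69 to -2.79 in 1/4 and from -4.92 to -4.76 in 1/8.

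The replicate numbers were not taken to pair the samples, and which fraction libraries share an oocyte is not known and was not modelled. Same-numbered libraries correlated at -0.17, 0.22 and -0.12 between cycle numbers. Between the groups at 18 cycles, whole oocytes included, they correlated at -0.04 to 0.04. With the number as a block, 73 genes passed in 1/2, and in 1/4 126 genes and 1 member.

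With single libraries left out the remaining one of a pair is assumed to vary like the other groups. Genes called ranged over 1616 to 4007 at 18 against 10 cycles (4053 with all), 1815 to 3958 against 14 cycles (4072), 1098 to 2133 in 1/8 (2329), 0 to 31 in 1/2 and 0 to 104 in 1/4. On the ERCC scale they ranged over 1930 to 8908 in 1/2 (7697) and 6703 to 10592 in 1/4 (10301). Against 10 cycles the ranges were 1299 to 3325 in 1/2 (2920), 567 to 2158 in 1/4 (1802) and 0 to 2 in 1/8. Members called ranged over 1 to 3 at 18 against 10 cycles, 2 to 4 against 14 cycles, 2 to 4 in 1/8, 0 to 1 in 1/4, 3 to 10 in 1/2 and 7 to 10 in 1/4 on the ERCC scale, and, against 10 cycles, 1 to 2 in 1/2 and 0 to 3 in 1/4. Among values of members not called in either setting, 49 of 1018 changed sign.

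Each group holds 2 libraries, and all oocytes come from 1 female, so variation between animals was not measured. With 2 libraries per group large differences can miss the threshold too, so a gene not called is not shown to be unchanged. The shallowest libraries held 1706478 and 1702062 counts on genes, which leaves Fto with 7 reads in a whole oocyte at 18 cycles. Transcript abundance was measured, and neither the mark nor the proteins were.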
